A study of Mus musculus with 22 samples.

Results

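The genes described here are the subunits of the transcription factor NF-κB and the inhibitors that hold them, 10 genes in all: Nfkb1, Nfkb2, Rel, Rela and Relb for the subunits, Nfkbia, Nfkbib and Nfkbie for the inhibitors of the cytoplasm, and Nfkbiz and Bcl3 for the related proteins of the nucleus. They were chosen by name, with no threshold on a measured value, although earlier results of these data were known, and all 10 are among the 53379 genes of the count file. All 10 also passed the filter on low counts, which left 40714 genes to test. Adult male C57/BL6N mice, acquired at 8 weeks of age and kept for 4 weeks before use, received an injection above the right hippocampus of kainate (70 nl, 20 mM), an agonist of glutamate receptors that sets off status epilepticus, or of 0.9% NaCl as sham, and both groups had the same anesthesia and surgery. Kainate mice were kept in the study if they convulsed within 4 h. After 24 h, the left hippocampi, opposite to the injection, of 8 mice per treatment were combined into 3 pools of 4 or 2 mice, and each pool was sorted by NeuN, a protein of neuronal nuclei, into a NeuN+ fraction (called neurons here) and a NeuN- fraction (called glia). The mRNAseq libraries number 3 for kainate neurons, 3 for sham neurons, 3 for kainate glia and 2 for sham glia, and the comparison asks how these genes differ in a hippocampus that seizures reach but that was not itself injected.

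NF-κB is a family of dimers that bind short κB sites in DNA. In resting cells the inhibitors IκBα (Nfkbia), IκBβ (Nfkbib) and IκBε (Nfkbie) keep dimers of RelA, c-Rel and the smaller subunits out of the nucleus. Signals from cytokine and pattern recognition receptors activate IκB kinases, the inhibitors are degraded, and the freed dimers switch on genes of inflammation and survival, among them genes of the pathway itself. A second branch processes the Nfkb2 product and releases dimers with RelB. IκBζ (Nfkbiz) and Bcl-3 (Bcl3) act in the nucleus, where they bind the smaller subunits at DNA and can raise or lower transcription. In brain the pathway is known from neurons as well as from microglia and astrocytes.

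Total counts ranged from 12058875 to 45428465 per library. The neuronal markers summed to 3018 to 6909 normalized CPM in neurons and to 569 to 1049 in glia, and the microglial markers to 49.1 to 83.0 in neurons and to 709 to 3985 in glia. Normalized CPM are counts divided by the total of the library and put on a common scale, with totals adjusted by the TMM method (trimmed mean of M values). The 4 libraries numbered 1 had the lowest TMM factors, at 0.700 to 0.864 against 0.865 to 1.68 in the other 7. The methods describe single-read and paired-end sequencing on different instruments, and the labels do not say which library had which. In addition, 2 glia libraries (kainate 2 and sham 1) came from 0.05 ng of RNA with 15 PCR cycles instead of 1 ng with 10. The protocol text of the samples speaks of right hippocampi, whereas titles, design text and methods give the left side. RNA came from sorted nuclei of pooled mice, so fewer cells that express a gene and less RNA per cell cannot be told apart. The p-values measure the spread between pools, or the spread left over where a fit removes differences between replicate numbers or pools.

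The pathway is known to feed back on its own genes through κB sites in their promoters. Promoters are therefore shown for the 6 members with an entry that a fit below called for kainate against sham, 4 with a match to the site, and Rela and Nfkbie without one. RefSeq promoters, 250 bases before to 50 after the start of the gene (GRCm38.p6), were at hand for 7 of the 10 genes. Nfkb1, Relb and Nfkbiz had no entry in the table. They were searched on both strands for the κB consensus (3 G, a purine, any base, 3 pyrimidines and 2 C), which 1907 of all 32851 promoters of this length hold (5.8%). A match was present for Nfkb2, Rel, Nfkbia and Bcl3 and not for Rela, Nfkbib and Nfkbie. Capitals mark the match in the sequences of Bcl3 (chr7:19822706-19823005, minus strand), Rel (chr11:23770920-23771219, minus strand), Nfkbia (chr12:55492598-55492897, minus strand) and Nfkb2 (the first of 3 promoters, chr19:46304487-46304786, plus strand), and the sequences of Rela (chr19:5637291-5637590, plus strand) and Nfkbie (chr17:45555450-45555749, plus strand) have none.
Bcl3: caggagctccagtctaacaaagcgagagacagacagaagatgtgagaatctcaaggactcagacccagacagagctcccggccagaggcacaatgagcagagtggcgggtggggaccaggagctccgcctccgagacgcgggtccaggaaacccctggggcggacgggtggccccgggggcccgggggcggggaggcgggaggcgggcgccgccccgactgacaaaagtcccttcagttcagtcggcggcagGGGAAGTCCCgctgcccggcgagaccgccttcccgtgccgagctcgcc
Rel: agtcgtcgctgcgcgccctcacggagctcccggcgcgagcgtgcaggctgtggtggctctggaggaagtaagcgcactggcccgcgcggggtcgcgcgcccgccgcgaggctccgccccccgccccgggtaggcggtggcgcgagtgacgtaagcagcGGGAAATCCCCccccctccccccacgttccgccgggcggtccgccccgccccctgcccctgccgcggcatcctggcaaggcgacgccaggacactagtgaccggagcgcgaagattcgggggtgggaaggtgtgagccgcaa
Nfkbia: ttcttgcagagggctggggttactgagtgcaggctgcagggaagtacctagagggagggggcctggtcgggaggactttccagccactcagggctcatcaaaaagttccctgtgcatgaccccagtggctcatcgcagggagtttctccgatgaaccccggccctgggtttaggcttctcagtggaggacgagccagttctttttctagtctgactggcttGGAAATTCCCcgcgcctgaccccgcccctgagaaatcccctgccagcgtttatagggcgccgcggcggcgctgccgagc
Nfkb2: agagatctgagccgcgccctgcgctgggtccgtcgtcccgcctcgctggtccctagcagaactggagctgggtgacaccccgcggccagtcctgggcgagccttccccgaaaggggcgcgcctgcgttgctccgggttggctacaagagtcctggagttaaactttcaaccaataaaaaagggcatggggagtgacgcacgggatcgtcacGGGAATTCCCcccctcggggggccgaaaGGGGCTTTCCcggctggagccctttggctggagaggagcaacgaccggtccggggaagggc
Rela: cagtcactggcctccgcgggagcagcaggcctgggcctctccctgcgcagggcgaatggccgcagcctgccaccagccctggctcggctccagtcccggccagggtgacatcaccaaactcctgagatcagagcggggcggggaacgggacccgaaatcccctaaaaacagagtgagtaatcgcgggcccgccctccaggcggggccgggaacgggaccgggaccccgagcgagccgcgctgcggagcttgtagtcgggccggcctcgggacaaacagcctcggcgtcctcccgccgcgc
Nfkbie: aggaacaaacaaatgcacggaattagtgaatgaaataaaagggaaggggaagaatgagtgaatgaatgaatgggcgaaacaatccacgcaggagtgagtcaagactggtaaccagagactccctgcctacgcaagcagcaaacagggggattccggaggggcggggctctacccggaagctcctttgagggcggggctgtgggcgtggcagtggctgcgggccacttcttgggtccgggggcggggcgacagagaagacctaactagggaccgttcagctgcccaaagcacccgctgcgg
Positions are counted from the start that each promoter of the table is built on, which for Nfkb2 lies inside the gene as annotated in GENCODE. In the Nfkb2 promoter shown, matches began at -39 and -11. The other 2 Nfkb2 promoters overlap and hold the same match, at 10 in the first of them and at -225 in the next. In Rel 2 overlapping matches began at -92 and -91, in Nfkbia the match began at -29 and in Bcl3 at 2. A match of letters is a description, and the binding of NF-κB was not measured.

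In neurons, the members with the smallest p for kainate against sham were Nfkbie and Rel, an inhibitor and a subunit, and both had higher levels after kainate. Nfkbie, which encodes IκBε (chr17:45555703-45563169, GRCm38), had 12.6, 5.73 and 13.7 CPM in kainate neurons 1, 2 and 3 and 2.08, 3.65 and 2.68 CPM in sham neurons 1, 2 and 3. Its 3 kainate libraries were all higher than the 3 sham libraries, and the values of replicate 2 were the closest pair. Its log2 fold change was 1.92 (SE 0.43, 3.78-fold, 95% interval 0.99 to 2.85, edgeR FDR = 0.282). The FDR missed the threshold of 0.25 in this fit of all 11 libraries, and Nfkbie ranked 86 among the tested genes by p. In a fit of the neuron libraries alone, which is how the study fitted each cell type and set this threshold, Nfkbie was called at 1.92 (FDR = 0.172). With the replicate number as a block, a fit that compares kainate and sham libraries of the same number, Nfkbie rose by 1.83 (FDR = 7.9e-05). Without the 4 libraries numbered 1, its log2 fold change was 1.53 (FDR = 0.0113). Without sham glia 1 or sham glia 3, which enter the shared estimate of the spread, it was 1.91 or 1.92 (FDR = 0.172 or 0.165, with 0.38% or 0.413% of all genes called).

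Rel, which encodes c-Rel (chr11:23736847-23770970), had 20.8, 23.7 and 27.3 CPM in kainate neurons and 12.02, 9.16 and 10.4 CPM in sham neurons. The groups did not overlap, and the kainate library was 1.73, 2.59 and 2.63 times its sham library in replicates 1, 2 and 3. Rel had a log2 fold change of 1.19 (SE 0.30, 95% interval 0.53 to 1.84, edgeR FDR = 0.456, rank 148), and with the block Rel rose by 1.19 (FDR = 0.000217). The neuron libraries alone gave 1.21, a call (FDR = 0.133). Without the libraries numbered 1, it was 1.31 (FDR = 0.0258). Among all tested genes, 4.26% had higher kainate than sham neurons without overlap, against 2 of the 10 members.

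The other subunits moved less in neurons. Rela, the main activating subunit, had 56.4, 55.4 and 46.8 CPM in kainate and 52.6, 40.6 and 35.3 CPM in sham neurons, so that the groups overlapped (log2 fold change 0.30, SE 0.43, FDR = 1.00). Relb, the partner of the Nfkb2 product, had 19.6, 13.6 and 20.4 CPM against 9.80, 15.6 and 9.28 CPM (0.62, SE 0.36, FDR = 1.00), and replicate 2 went the other way from replicates 1 and 3. Nfkb1, the precursor of the most common partner of RelA, had a log2 fold change of 0.04 with a 95% interval of -0.65 to 0.72, and Nfkb2 one of -0.18 with an interval of -1.02 to 0.66. Of the 5 subunits, Rel alone had an interval that left out 0 in this fit.

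Of the other inhibitors in neurons, Nfkbia, the most rapidly resynthesized IκB, had 20.4, 18.2 and 13.5 CPM after kainate and 15.2, 10.2 and 8.90 CPM in sham. Each kainate library was above the sham library of its number, by 1.35, 1.78 and 1.52 times, while the groups overlapped. The log2 fold change of Nfkbia was 0.61 (SE 0.56, FDR = 1.00) without the block, and with it Nfkbia rose by 0.62 (FDR = 0.0887). Nfkbib (0.48, SE 0.50) and Nfkbiz (0.31, SE 0.41) had intervals that include 0 without the block and were not called by either fit. With the block, the interval of Nfkbib was 0.027 to 0.99 (FDR = 0.483). Bcl3 had few reads in neurons, with 4, 93 and 127 reads in kainate and 1, 47 and 45 reads in sham libraries. This is 0.285, 2.37 and 5.72 CPM against 0.0671, 1.35 and 1.45 CPM. Bcl3 had a log2 fold change of 1.49 (SE 0.85, FDR = 1.00), and of 1.43 with the block, which called it (FDR = 0.0138). With kainate neurons 2 and 3 against sham neurons 2 and 3, Bcl3 was 1.76 and 3.94 times higher. The value rests on single libraries, since in the fit without the block it was 0.49 without kainate neurons 3, 1.01 without sham neurons 1 and 2.00 without kainate neurons 1.

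In neurons, 0 of 10 members were called by the edgeR quasi-likelihood test, where 0.165% of all tested genes were. At an unadjusted p below 0.05, 2 members were higher (Nfkbie and Rel), against 1.46% of all genes. DESeq2's Wald test called the same 2, against 1.34% of the 21722 genes left by its own filter. Nfkbie and Rel were also the calls of the fit of neurons alone (1.07% of all genes higher) and of a filter of 1 CPM in 3 libraries (0.417%), and Nfkbie that of the newer quasi-likelihood method (0.302%). With the block, 4 members rose (Nfkbie, Rel, Bcl3 and Nfkbia), against 3.19% of all genes, and without the libraries numbered 1 Nfkbie, Rel and Bcl3 were called, against 2.28%. The median log2 fold change of the members was 0.54 and 9 of 10 were above 0, against 48.6% of all genes. Astrocyte markers moved in neurons too. Their summed level was 309 to 468 CPM in kainate and 210 to 285 CPM in sham neurons, and with the block 5 of 8 rose, Gfap by 1.78 on the log2 scale among them, and 2 fell, where 3.19% of all genes rose and 1.9% fell. Of 8 microglial and of 8 oligodendrocyte markers, 2 rose and 1 fell in each list with the block, of 6 precursor markers 1 rose and 1 fell, and 2 of 8 neuronal and 1 of 8 endothelial markers rose. The part of these transcripts in the values of the members was not tested.

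**Figure D1:**
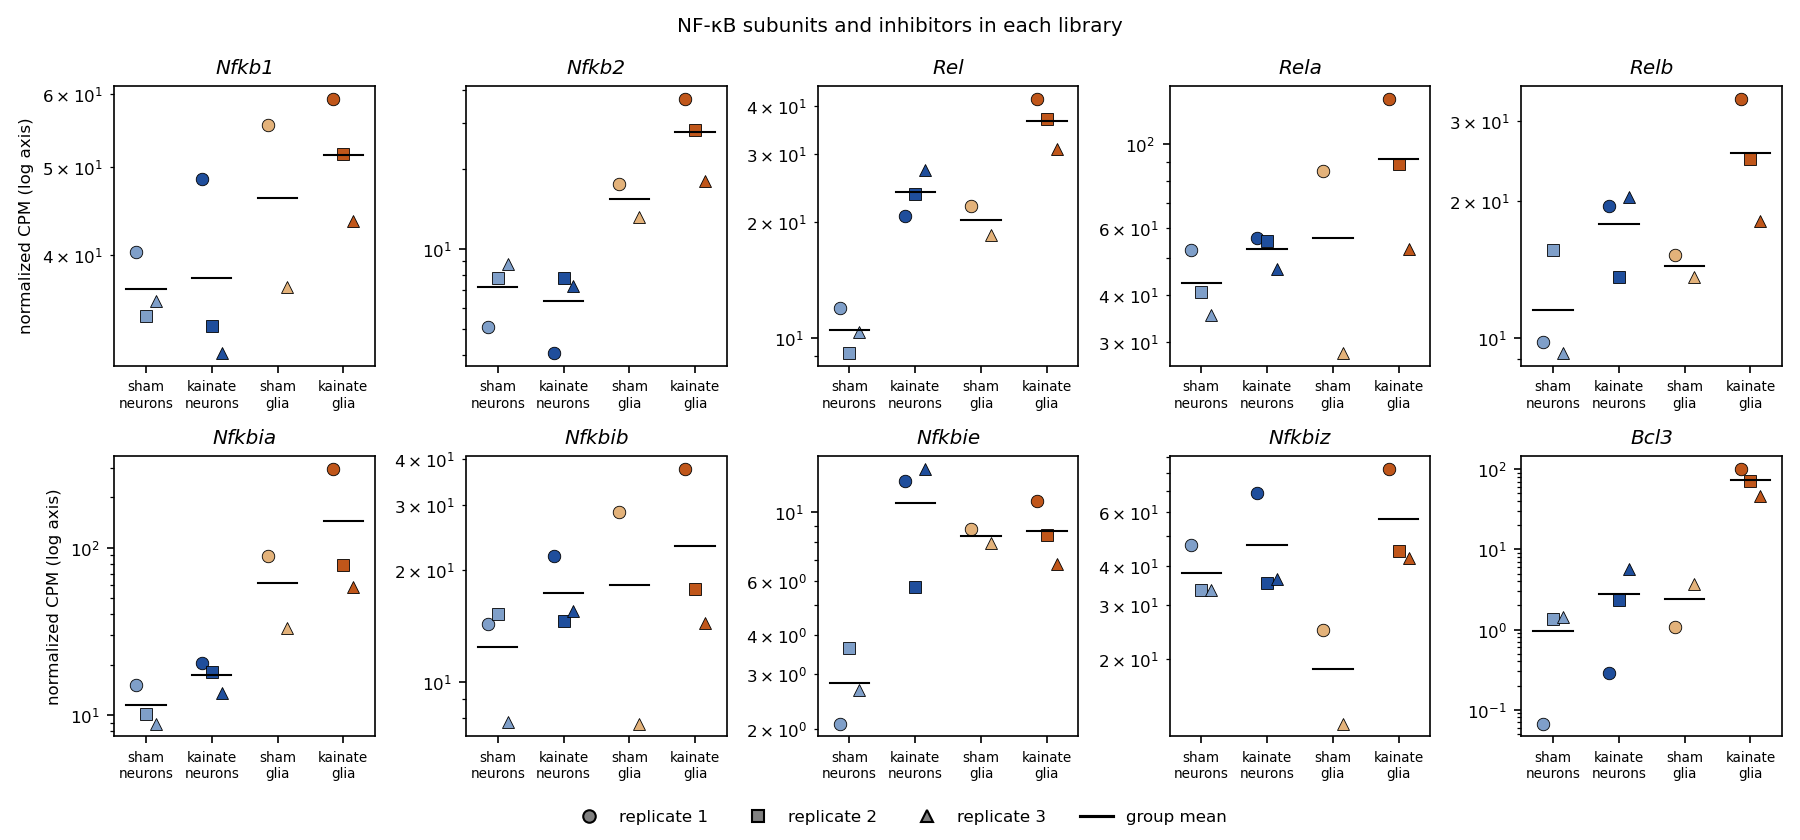
Normalized CPM (log axis, own scale per gene) of the 10 genes in each of the 11 libraries, by group; the shape gives the replicate number and the line the group mean. Nfkbie and Rel of kainate neurons lie above all sham neurons, and Bcl3 of kainate glia lies at 46.3 to 100.03 CPM against 1.09 and 3.67 CPM in sham glia.

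In glia, Bcl3 had the highest fold change of the 10 genes. Bcl3 (chr7:19808462-19822770) had 1595, 2127 and 1648 reads in kainate glia and 17 and 74 reads in sham glia 1 and 3. This is 100.03, 72.2 and 46.3 CPM against 1.09 and 3.67 CPM, and no libraries overlap. On the log2 scale the change was 4.92 (SE 1.12, 30.3-fold, 95% interval 2.51 to 7.34, edgeR FDR = 0.438), and the gene ranked 60 by p. With the block, which takes nothing for the effect from kainate glia 2 because this library has no sham library of its number, Bcl3 rose by 4.88 (FDR = 5.3e-13). Each value of the block in glia rests on 2 pairs of libraries, with a spread estimated largely from other genes. By number, Bcl3 was 92.1 times higher in replicate 1, where the sham library was of low input, and 12.6 times higher in replicate 3, where both libraries had 1 ng. Without both libraries of low input the log2 fold change of Bcl3 was 4.34 (FDR = 1.00), and without the libraries numbered 1 it was 4.03 (FDR = 3.6e-08). Both fits hold 1 sham glia library, sham glia 3, which is assumed to vary like the other groups, and the same is true of each value in glia below without the low-input libraries or the libraries numbered 1. Without kainate neurons 1, sham neurons 1 or sham glia 3, the FDR of Bcl3 was 0.225, 0.165 or 0.211, and its log2 fold change 4.92, 4.92 or 6.05. These fits called 0.0934%, 0.113% and 6.59% of all genes. Exons of Bcl3 share 161 bases with Gm16175 on the other strand, and the strand setting of the counting is not given in the sources used here.

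Nfkbiz, which encodes IκBζ (chr16:55811375-55838899), had 82.3, 44.9 and 42.5 CPM in kainate glia and 24.8 and 12.3 CPM in sham glia. All kainate libraries were above both sham libraries, and by number Nfkbiz was 3.32 and 3.45 times higher. Nfkbiz had a log2 fold change of 1.61 (SE 0.48, 95% interval 0.57 to 2.65, FDR = 1.00 by edgeR, rank 174), and with the block Nfkbiz rose by 1.76 (FDR = 1.4e-06). Without the libraries numbered 1, it was 1.84 (FDR = 0.0263), and without sham glia 1 alone 2.22 (FDR = 0.980).

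The level of Nfkbia was 294, 79.2 and 58.2 CPM in kainate glia and 89.4 and 33.1 CPM in sham glia 1 and 3. Sham glia 1 lay above 2 of the 3 kainate libraries, so the groups overlapped, while within each number the kainate library was higher, by 3.29 and 1.76 times. The log2 fold change of Nfkbia was 1.23 (SE 0.64, FDR = 1.00), and with the block it rose by 1.27 (FDR = 0.000370). In the fit without the block it was 0.04 without kainate glia 1, the library with the highest level, 0.68 without sham glia 3 and 2.15 without sham glia 1. Nfkbib had 37.4, 17.8 and 14.4 CPM against 28.7 and 7.74 CPM (0.35, SE 0.56), and its value ran from -0.32 without kainate glia 1 or sham glia 3 to 1.61 without sham glia 1. Nfkbie had 10.8, 8.42 and 6.80 CPM against 8.82 and 7.93 CPM, and its log2 fold change of 0.05 had a 95% interval of -0.96 to 1.05. Exons of Nfkbib share up to 314 bases with genes on the other strand.

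Among the subunits in glia, the estimated kainate effect lay between 1.11-fold and 1.81-fold, with no call without the block. Rel had 41.8, 37.1 and 31.0 CPM in kainate and 22.0 and 18.5 CPM in sham glia, without overlap (log2 fold change 0.85, SE 0.34, edgeR FDR = 1.00). Nfkb2 had 37.0, 28.1 and 18.1 CPM against 17.7 and 13.2 CPM (0.84, SE 0.44), and Relb 33.6, 24.8 and 18.2 CPM against 15.3 and 13.6 CPM (0.82, SE 0.41). These genes did not overlap either, although kainate glia 3 was within 1 CPM of sham glia 1 for Nfkb2. Rela had 132, 88.8 and 52.7 CPM against 85.1 and 28.0 CPM, with overlap (0.69, SE 0.49). Single libraries moved the value of Rela, to 1.73 without sham glia 1, 0.09 without sham glia 3 and 0.20 without kainate glia 1, and it was 1.75 without both low-input libraries. Nfkb1 differed least, at 0.16 with an interval of -0.61 to 0.92. With the block, Rela (0.77, FDR = 0.0503), Rel (0.83, FDR = 0.0883), Nfkb2 (0.76, FDR = 0.240) and Relb (0.77, FDR = 0.245) rose, the last 2 just inside the threshold. Exons of Nfkb2 share up to 531 bases with genes on the other strand.

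Over the glia, 0 of 10 members were called without the block, against 0.101% of all genes. At an unadjusted p below 0.05, 3 were higher (Bcl3, Nfkbiz and Rel), against 1.35%. DESeq2's Wald test called Bcl3 and Nfkbiz, against 1.07% of the 17780 genes left by its own filter. Bcl3 was also called by the newer quasi-likelihood method (0.157% of all genes higher) and without a filter on low counts (0.0717%). An edgeR fit of glia alone called 0 members and 0% of all genes higher. The study, whose filter kept fewer genes than the fit of glia alone here, lists Bcl3 among its upregulated glial genes. The cause of that difference was not tested. With the block 7 members rose (Bcl3, Nfkbiz, Nfkbia, Rela, Rel, Nfkb2 and Relb), against 2.93% of all genes, and without the libraries numbered 1 Bcl3 and Nfkbiz were called, against 1.08%. The kainate and sham glia did not overlap for 5 members, all higher in kainate, against 4.7% of all genes. The median log2 fold change was 0.83 and 10 of 10 were above 0, against 51.9% of all genes. Nfkb1, Nfkbib and Nfkbie fell below 0 without kainate glia 1, and also without sham glia 3. Microglial markers summed to 768 to 2249 CPM in kainate and to 709 and 3985 CPM in sham glia, with 0 of 8 above 0 in log2 fold change, and blood leukocyte markers (9 of 10 tested) to 96.1 to 106 and to 86.7 and 103 CPM. Both ranges overlap. Astrocyte markers summed to 682 to 3620 and to 1212 and 4622 CPM, oligodendrocyte markers to 5021 to 27962 and to 8879 and 39852 CPM, and precursor markers to 518 to 2009 and to 1005 and 3347 CPM, with overlap as well. With the block, which called the 7 members, other markers moved in glia too. Of 8 astrocyte markers 1 rose and 4 fell, and 4 of 8 oligodendrocyte, 4 of 6 precursor and 2 of 8 microglial markers fell, where 2.86% of all genes fell. Of 8 neuronal markers 2 rose, of 8 endothelial markers 1, and 0 of the pericyte and leukocyte markers were called. The part of these shifts in the values of the members was not tested.

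**Figure D2:**
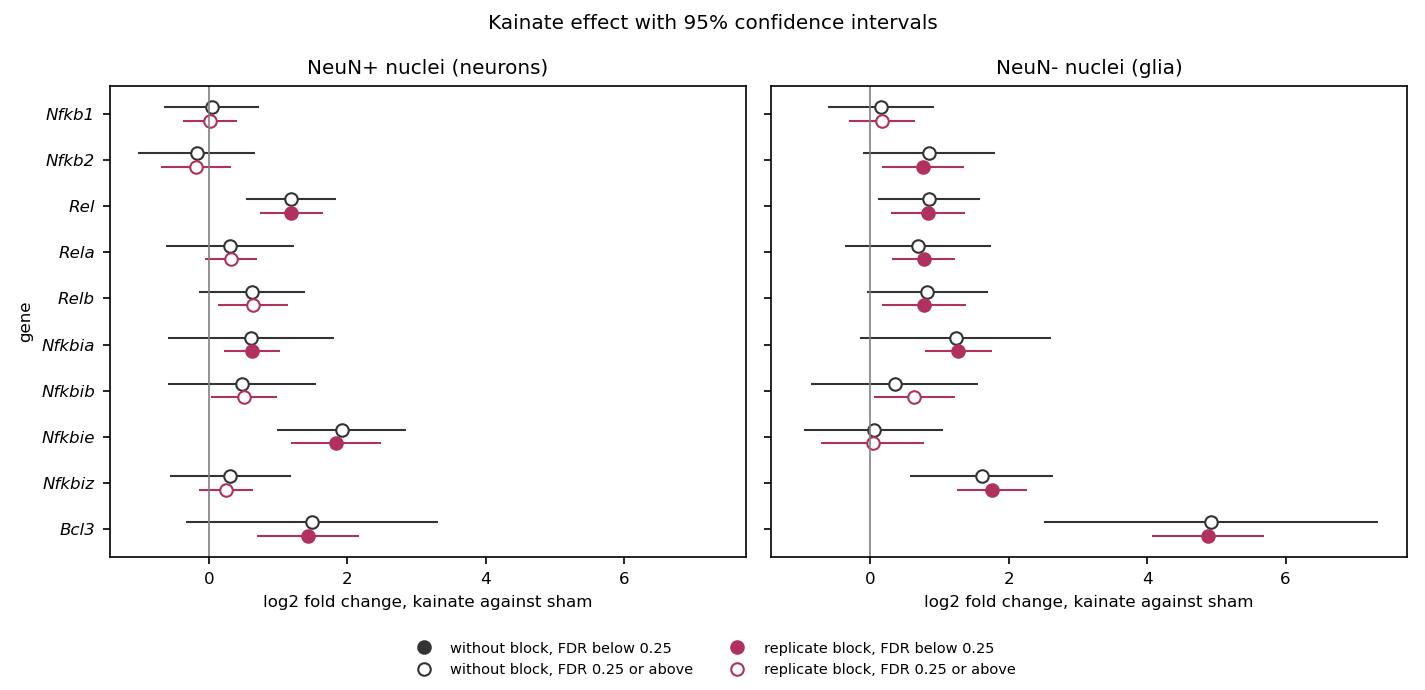
Log2 fold change of kainate against sham for each gene, with 95% confidence intervals, in neurons (left) and glia (right), from the fit without the block (black) and with the replicate block (red); filled points have an FDR below 0.25. No black point is filled, and red points are filled for 4 genes in neurons and 7 in glia.

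The estimated kainate effect was larger in neurons for Nfkbie and larger in glia for both nuclear members, Bcl3 and Nfkbiz. The difference, the log2 fold change in neurons minus that in glia, was 1.87 for Nfkbie (SE 0.63, 95% interval 0.53 to 3.21), -3.43 for Bcl3 (SE 1.30, -6.22 to -0.65) and -1.30 for Nfkbiz (SE 0.62, -2.63 to 0.03). At an unadjusted p below 0.05, Nfkbie was higher and Bcl3 lower, against 0.447% and 0.462% of all genes. All 10 members had an FDR of 1.00 for the difference, where 0.00246% of all genes were called. With the block within each cell type, which tests replicate differences of both fractions together, Nfkbie (1.80, FDR = 0.0611), Bcl3 (-3.45, FDR = 5.3e-05) and Nfkbiz (-1.51, FDR = 0.00429) were called, against 1.94% of all genes. With the pool as the block, 0 were called, against 0.0221%, and the values were 2.04, -3.12 and -1.46. Rel, which was higher in both cell types, had a difference of 0.33 (95% interval -0.63 to 1.30), and Nfkbia one of -0.63 (-2.43 to 1.17). Without the libraries numbered 1, a fit with 1 sham glia library, Bcl3 was called (-2.60, FDR = 0.0748), against 0.151% of all genes. Single libraries moved the difference of Bcl3, to -4.57 without sham glia 3 and -4.43 without kainate neurons 3, with no call in either fit, and that of Nfkbiz to -1.92 without sham glia 1. For the other subunits the interval of the difference included 0 as well without the block. With the block within each cell type, it left out 0 for Nfkb2 (-0.95, -1.73 to -0.17) and Nfkbia (-0.65, -1.27 to -0.020). Neither was called.

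Over both treatments, 6 of the 10 members were lower in neurons than in glia, against 20.4% of all genes, and 0 were higher, against 16.8%. The median of all genes was -0.47 in this comparison, so a log2 fold change is to be read against that shift. Nfkbia (log2 fold change -2.74, SE 0.43, edgeR FDR = 0.000392) and Nfkb2 (-1.60, SE 0.29, FDR = 0.00124) were lower in every neuron library than in every glia library, against 6.31% of all genes. Bcl3 (-2.97, FDR = 0.00422), Rel (-0.78, FDR = 0.0265), Nfkbie (-0.64, FDR = 0.196) and Rela (-0.59, FDR = 0.241) were lower with overlap, and the last pair lay close to the shift. The call of Rela was lost without kainate neurons 1, 2 or 3, sham neurons 2 or 3, kainate glia 1 or 2 or sham glia 1, and that of Nfkbie without kainate neurons 2, sham neurons 1 or 3, kainate glia 1 or 2 or sham glia 3. Nfkbiz was not called, with a value of 0.38, and was 0.70 without sham glia 1 and 0.69 without the libraries numbered 1. Without kainate glia 1 Nfkbiz was called higher (0.56, FDR = 0.248), where 17.9% of all genes were. Members not called above were called lower in some of these fits. Nfkb1 was so without kainate neurons 1 (14.7% of all genes lower) and Relb without sham neurons 2 (16.8%). Nfkb1, Relb and Nfkbib were called lower without kainate glia 3 (21.4%). With the pool as a block 9 were called lower, against 34.8% of all genes, and Nfkbiz higher (0.45, FDR = 0.0557), against 24.9%. The low-input libraries are both glia. Without both, Nfkbie was no longer called (-0.58, FDR = 0.292), nor was it with low RNA input as a covariate (FDR = 0.275) or without a filter on low counts (FDR = 0.298), and the same settings ended the call of Rela. The log2 fold change of Rela without both libraries was -0.07 and that of Nfkbib 0.08, and Nfkbiz was called higher at 0.63 (FDR = 0.229), against 20% of all genes.

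The cell types were also compared within each treatment, a choice added after the data were seen. These are contrasts of the fit of all 11 libraries and use its estimate of the spread. Between the sham libraries, Nfkbia (-2.42), Nfkbie (-1.57), Nfkb2 (-1.09) and Rel (-0.95) were lower in neurons by the edgeR test (FDR 0.0241 to 0.170), against 7.63% of all genes. Bcl3 differed by -1.25 (FDR = 0.594) and Nfkbiz by 1.03 (FDR = 0.270). Between the kainate libraries, Bcl3 (-4.68), Nfkbia (-3.05) and Nfkb2 (-2.11) were lower (FDR 0.00387 to 0.00464), against 9.39%, whereas Nfkbie differed by 0.30 (FDR = 0.695) and Nfkbiz by -0.27 (FDR = 0.713). The test of these changes between treatments is that of the difference above.

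Levels were compared between genes as normalized CPM per kb of exon (GENCODE M21). In sham neurons Rela was highest at 13.95 ± 2.89 (SD, n = 3), apart from the next gene, and Nfkbiz (7.55 ± 1.54), Nfkbia (7.10 ± 2.06) and Nfkbib (5.74 ± 1.87) followed without a gap between their libraries. Nfkbie (0.920 ± 0.259) and Bcl3 (0.386 ± 0.312) were the lowest, each apart from its neighbour. In kainate neurons Rela stayed first at 17.2 ± 1.72, and Nfkbie, at 3.50 ± 1.42, overlapped with Relb above and Rel below it. In sham glia Nfkbia was first at 38.1 ± 24.7 (n = 2) and Bcl3 last at 0.961 ± 0.738, apart from Rel above it. In kainate glia Bcl3 reached 29.4 ± 10.9 (n = 3), by mean below Nfkbia (89.4 ± 81.2) and level with Rela (29.7 ± 12.9). It overlapped with both genes. Nfkbie was the lowest of the 10 in kainate glia at 2.85 ± 0.659.

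**Figure D3:**
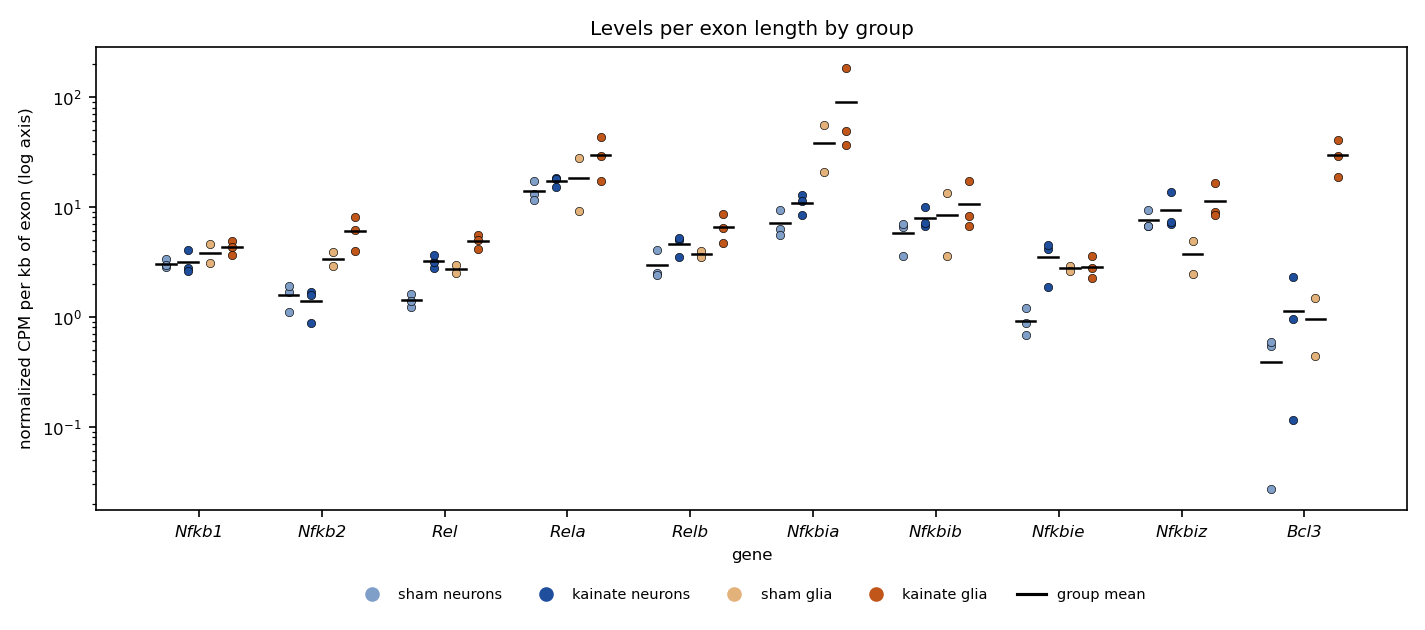
Level of each gene in normalized CPM per kb of exon (log axis) in every library of the 4 groups; lines are group means. By group mean, Bcl3 is the lowest gene in sham neurons, kainate neurons and sham glia, at 0.386, 1.13 and 0.961, and reaches 29.4 in kainate glia. In kainate neurons it overlaps with Nfkb2.

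The genes whose pattern over the 11 libraries was most like that of Nfkbie, by Pearson correlation of log2 CPM among 23237 genes, were Slc22a21 (r = 0.93), Acan (r = 0.93) and Kif18a (r = 0.93). For Bcl3 they were Bdkrb2 (r = 0.98), P2ry2 (r = 0.98) and Msr1 (r = 0.97). These libraries share cell type, treatment and pools, so the correlations describe likeness alone. Nfkbie and Bcl3 were the members with the smallest p in neurons and in glia.

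Around the members, 4 lists of the pathway were examined. They were chosen with earlier results of these data known, so their shares of calls beside those of all genes are no test of the pathway. Of 21 receptors and adaptors, 0 were called in neurons and 1 in glia, Tnfrsf12a, the receptor of the cytokine TWEAK, against 0.165% and 0.101% of all genes. Tnfrsf12a had 222, 73.3 and 66.5 CPM in kainate glia and 12.8 and 3.82 CPM in sham glia (log2 fold change 3.86, SE 0.73, edgeR FDR = 0.142). It was also the receptor with the smallest p in neurons, at 18.4, 10.1 and 17.9 CPM against 5.51, 2.41 and 3.03 CPM (2.09, FDR = 0.597). With the block, 5 receptors and adaptors rose and 1 fell in neurons and the same numbers in glia, where 3.19% and 2.93% of all genes rose and 1.9% and 2.86% fell. Of 11 activating kinases 0 were called in either cell type. Map3k8, a kinase upstream of the MAP kinases and of NF-κB, had the smallest p in both, with a log2 fold change of 0.81 in neurons (rank 572) and of 1.41 in glia (rank 114), and it alone rose with the block. The IκB kinases Chuk, Ikbkb and Ikbkg were not called by either fit.

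Of 16 other negative regulators 0 were called. Those with the smallest p were Cyld in neurons (-0.37, FDR = 1.00 by edgeR), a deubiquitinase that counters the kinases, and Tnip2 in glia (1.24, FDR = 1.00), a ubiquitin-binding inhibitor. With the block, Tnip2 and Nfkbid rose in glia, against 2.93% of all genes, and 0 were called in neurons, where 1 had an unadjusted p below 0.05. Of 46 known target genes, 1 rose in neurons and 4 in glia without the block, against calls for 0.165% and 0.101% of all genes. Ptx3, a secreted pentraxin, rose in neurons from 1.75, 0.574 and 0.741 CPM in sham to 8.18, 5.79 and 20.7 CPM in kainate libraries (log2 fold change 3.56, edgeR FDR = 0.180). In glia, Gadd45b, a stress response gene (5.26, FDR = 0.0763), Ptx3 (4.97, FDR = 0.142), Cd44, a receptor for hyaluronan (3.72, FDR = 0.0763), and Ccl2, a chemokine for monocytes (3.08, FDR = 0.142), rose by the edgeR test. These 4 calls and that of Tnfrsf12a were all lost without sham glia 1 (FDR 0.326 to 0.787), without both low-input libraries (FDR 0.615 to 1.00) and in the fit of glia alone (FDR 0.711 to 1.00), with log2 fold changes of 2.77 to 6.31 in these fits. All but Gadd45b were lost without kainate glia 2 (FDR = 0.260), and Tnfrsf12a, Ptx3 and Ccl2 without kainate glia 1 (FDR 0.276 to 0.407). Ccl2 was also lost without kainate glia 3, kainate neurons 2 or sham neurons 3, and Tnfrsf12a without kainate neurons 2 or sham neurons 2 or 3. In neurons the call of Ptx3 was lost without any 1 of the 3 kainate neuron libraries, sham neurons 2 or 3 or kainate glia 2 (FDR 0.288 to 1.00), with log2 fold changes of 2.82 to 3.88. With the block, 8 target genes rose in neurons and 17 in glia, against 3.19% and 2.93% of all genes, among those of glia Tnf, Il1b, Icam1 and Cxcl10. The median log2 fold change of the target genes was 0.02 in neurons and 0.36 in glia, and those of the receptors were 0.24 and 0.36, against -0.01 and 0.02 over all tested genes.

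**Figure D4:**
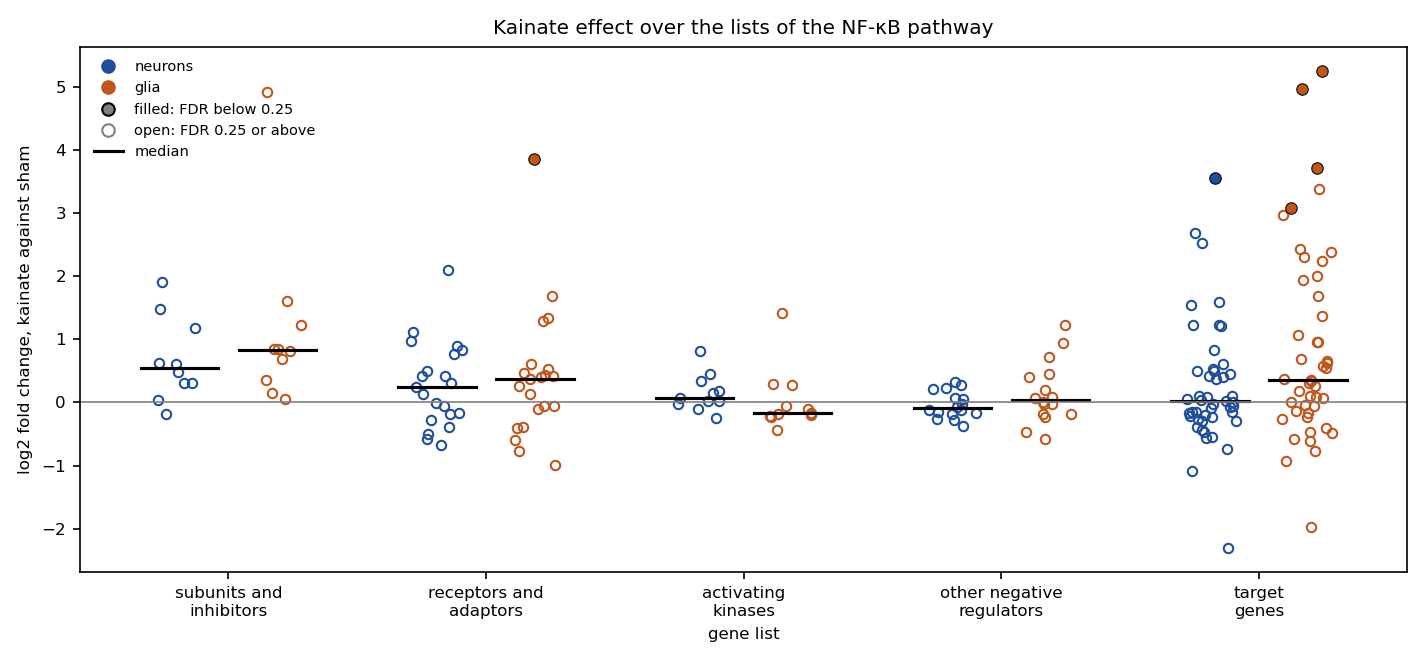
Log2 fold change of kainate against sham for the 10 members and the 4 lists, in neurons (blue) and glia (orange), from the fit without the block; filled points have an FDR below 0.25 and lines are medians. The members have medians of 0.54 and 0.83, the activating kinases of 0.08 and -0.17, and the filled points are Ptx3 in neurons and Tnfrsf12a, Ccl2, Gadd45b, Cd44 and Ptx3 in glia.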

How the data were processed

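The mRNAseq libraries were made from sorted NeuN+ and NeuN- nuclei. According to the methods and the submitters' processing notes, reads were trimmed with Trim Galore 0.4.3, aligned with Rsubread to mm10 (GRCm38) and counted per gene with featureCounts on GENCODE M16. The deposited values are these raw read counts, made by the authors without normalization. The 11 bisulfite samples were not analysed here.

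Genes without a symbol (105) were removed, filterByExpr (minimum count 10, total 15) kept 40714 genes, and counts were scaled by TMM. edgeR 4.0.16 (R 4.3.3, limma 3.58.1) fitted a quasi-likelihood model (legacy method) to the 4 groups in 1 fit with 7 residual degrees of freedom. The study fitted neurons and glia separately, which is an alternative here, and its FDR threshold was kept. The common biological coefficient of variation was 0.600. p-values were adjusted over all tested genes by the Benjamini-Hochberg method, with a call at FDR below 0.25. Comparisons were kainate against sham in neurons and in glia, the difference of these effects, and neurons against glia. DESeq2 1.42.0 and the settings named in the closing section were alternatives.

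Replicate numbers were checked for pairing before calls were compared. Deviations from the group means of same-numbered kainate and sham libraries correlated at 0.643, 0.161 and 0.491 in neurons and at 0.760 and 0.787 in glia, and the block is given beside results it changes. In neurons, kainate 2 correlated about as well with sham 3 (0.166), and sham 2 better with kainate 3 (0.418) than with kainate 2. With 2 sham glia libraries, deviations are opposite by construction, so the glia values are not separate evidence of pairing. The labels give only the number. NeuN+ and NeuN- libraries of the same pool correlated at 0.240 to 0.668, which is the pool block.

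The members and the lists were chosen with earlier results of these data known, and the lists come from general knowledge. Named are all 10 members, the list genes called at FDR below 0.25 in neurons or glia or, for a list without a call in a cell type, the gene with the smallest p, and for likeness 3 genes per member of smallest p, among genes with a mean log2 CPM of at least 0. Other list genes called with the block, the kinases Chuk, Ikbkb and Ikbkg, and Gfap were named after their values were seen. Log2 CPM used a prior count of 2. Coordinates and exon lengths are of GENCODE M21 on GRCm38. Reads carry no molecular identifiers, and 3 pools or fewer per group limit the precision.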

Additional observations from a re-analysis of the deposited data

How the results depend on the processing

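The direction of Nfkbie, Rel, Rela, Relb, Nfkbia, Nfkbib and Bcl3 in neurons and of Bcl3, Nfkbiz, Nfkbia, Rel, Rela, Relb and Nfkb2 in glia was the same in all 23 alternatives to each comparison, whereas the calls were not. Alternatives that leave out a library of the other cell type hardly test the direction, since the groups compared keep their libraries. Kainate against sham in neurons called 0 members. It called 2 with DESeq2's Wald test, 2 when genes had to reach 1 CPM in 3 libraries, 2 with a separate fit per cell type, 1 with the newer quasi-likelihood method, 3 without the 4 libraries numbered 1 and 4 with the replicate block. In glia, 0 became 2 with DESeq2's Wald test, 1 without a filter on low counts, 1 with the newer method, 2 without the libraries numbered 1 and 7 with the replicate block. For the difference of the effects, 0 became 3 with the replicate block within each cell type and 1 without the libraries numbered 1, and stayed 0 with the pool as the block. Neurons against glia called 6, and 10 with the replicate block by pool. This comparison called 9 with the filter of 1 CPM in 3 libraries, 4 without a filter and 4 with low RNA input as a covariate. These 3 counts were all of genes lower in neurons, where 29.5%, 14.2% and 24.6% of all genes were lower. As contrasts of the fit of all libraries, it called 3 between the kainate libraries and 4 between the sham libraries. Leaving out 1 library at a time gave 0 to 1 calls in neurons, 0 to 1 in glia, 0 for the difference and 4 to 9 for neurons against glia, where 0.0123% to 0.413%, 0.00225% to 6.59%, 0% to 0.0258% and 27.5% to 59.8% of all genes were called. Without sham glia 3, the share in glia was the 6.59%. At FDR below 0.05, the members called were 0, 0, 0 and 4, against 0.0196%, 0.00246%, 0% and 17.2% of all genes. The settings without the libraries numbered 1 and the contrasts within 1 treatment were chosen after seeing the data. Without 1 of the sham glia libraries, both low-input libraries or the libraries numbered 1, the lone sham glia library left is assumed to vary like the other groups.

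Some small effects changed sign. In neurons, Nfkb1 was -0.026 without a filter and -0.19 without the libraries numbered 1. In glia, Nfkbie was -0.040 with DESeq2's size factors, -0.041 with its Wald test and -0.047 without the libraries numbered 1. The difference for Nfkbib was -1.29 without both low-input libraries, -0.16 with low RNA input as a covariate, -0.12 with the replicate block and -0.76 without the libraries numbered 1, and that for Relb was 0.10 with the pool block. In neurons against glia, Nfkbib was 0.080 without both low-input libraries and 0.36 without the libraries numbered 1, and Rela 0.10 without the latter. In the contrast between the kainate libraries, Nfkbie was 0.30 and Nfkbiz -0.27. The cause was not tested. Leaving out 1 library at a time changed the sign of values that ranged from -0.18 to 0.16 for Nfkb1, -0.37 to 0.057 for Nfkb2, -0.084 to 0.49 for Nfkbiz and -0.27 to 0.22 for Ccl2 in neurons, from -0.12 to 0.51 for Nfkb1, -0.32 to 1.61 for Nfkbib and -0.22 to 0.15 for Nfkbie in glia, from -1.13 to 0.79 for Nfkbib, -0.33 to 0.085 for Relb, -0.47 to 0.16 for Nfkb1, -1.43 to 0.21 for Rela and -1.54 to 0.52 for Nfkbia in the difference, and from -0.81 to 0.16 for Nfkbib in neurons against glia. For the 10 members, the replicate block changed no other call in kainate against sham than those given in the report.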
